A study of Mus musculus with 60 samples.

Results

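Cadherins, the non-clustered protocadherins and the catenins were followed by RNA-Seq in the dorsal and ventral dentate gyrus (DG) of mice raised in standard housing (SH) or an enriched environment (EE). The 46 genes were chosen by symbol among the protein-coding genes of the count tables, from 46480 genes in all. They are the numbered cadherins (Cdh) except the endothelial Cdh5, the numbered autosomal protocadherins (Pcdh), Celsr1 to Celsr3, Fat1 to Fat4, Dchs1, and the α-, β- and δ-catenins (Ctnna, Ctnnb1 and Ctnnd). Of these, 42 passed the filter on low counts (more than 10 counts in at least 2 samples) and were tested among 17040 genes. The 4 others were Cdh1, Cdh16, Cdh17 and Cdh26, whose highest count in any sample was 7, 1, 2 and 17.

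Cadherins hold neighboring cells together through their extracellular repeats, which bind calcium and usually the same cadherin on the facing membrane. The cytoplasmic tail of a classical cadherin binds β-catenin and a δ-catenin, and α-catenin links that complex to actin. In the hippocampus, classical cadherins and δ-protocadherins sit at synapses and on growing axons, where the set a neuron carries helps to match it with its partners. The very large members Celsr, Fat and Dchs belong to the planar polarity and Fat pathways, which orient cells and guide axons and migrating neurons.

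All mice were male C57BL6J, weaned on day 22, kept for 8 weeks in their housing and killed at 80 days of age. EE mice lived as a larger group in a bigger cage with running wheels and toys that were exchanged every week, and SH mice in small groups in ordinary cages. Each sample was DG tissue punched from frozen slices and pooled over several mice. A dorsal and a ventral sample of the same number were taken as one pool, although the labels give only the numbers. The values below are from 18 samples, that is 4 pools of SH and 5 of EE in each region. SH replicate 3 was left out, because its samples held 789 (dorsal) and 308 (ventral) counts of Xist, a transcript of female cells, against at most 16 in any other sample. In tissue punches, fewer cells of a type and less RNA per cell cannot be told apart.

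Fragments counted on genes ranged from 22919364 to 28301861 per sample. Levels within a sample are given as TPM (reads scaled by transcript length and by the total of the sample), and levels between samples as CPM (counts scaled by library size and edgeR's TMM factors). Dentate granule cell markers were present in every sample, and 5 of the 6 on the list (Prox1, C1ql2, Dsp, Tdo2 and Pitpnm2) were higher in dorsal DG. Their summed level was 1256 to 1427 CPM in the dorsal and 639 to 863 CPM in the ventral samples, which did not overlap. Other cell type lists moved with the region as well, where 32.7% of all tested genes were called in either direction. Higher in ventral DG were 8 of 8 choroid plexus markers (25.3 to 212 CPM in dorsal and 392 to 1433 CPM in ventral samples, summed), 3 of 5 mossy cell markers (52.6 to 64.7 and 100.3 to 142 CPM), 4 of 6 meninges and fibroblast markers (42.2 to 61.9 and 67.5 to 96.5 CPM) and 3 of 6 interneuron markers (409 to 505 and 436 to 527 CPM). Habenula and thalamus markers were higher in dorsal DG for 3 of 6 (132 to 182 and 66.6 to 86.4 CPM), 2 of 3 CA1 markers were higher in ventral and 1 in dorsal DG, and 1 of 5 CA3 markers was higher in each region. The CA3 list holds Cdh24, itself one of the 46 genes. No astrocyte marker was higher in dorsal and 1 of 5 was higher in ventral DG, and none of the oligodendrocyte, endothelial or microglia markers was called in either direction. No gene of these lists was at 0 in all samples. The part of these lists in the regional differences below was not tested. None of the marker lists held a gene called between SH and EE in either region.

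β-Catenin was the most abundant transcript of the family and the protocadherins Pcdh20, Pcdh1 and Pcdh9 followed it. Ctnnb1 stood at 96.3 ± 17.7 TPM in dorsal and 89.3 ± 15.8 TPM in ventral DG (mean ± SD, n = 9 each). Pcdh20 stood at 39.2 ± 8.85 and 30.1 ± 7.9 TPM, Pcdh1 at 32.2 ± 5.86 and 21.5 ± 4.63 TPM, and Pcdh9 at 20.7 ± 4.48 and 15.2 ± 3.43 TPM. These 4 genes kept the same order within every one of the 18 samples. The ranges of neighbors in that order after Ctnnb1 overlapped only when different samples were compared. Among the other groups, the leading members were Cdh2 (N-cadherin, the main type I cadherin of neurons) at 17.3 ± 3.33 and 15.1 ± 3.39 TPM, Ctnna2 (the neuronal α-catenin) at 17.2 ± 3.54 and 13.7 ± 2.32 TPM, and Ctnnd2 (the neural δ-catenin) at 14.3 ± 2.58 and 14.7 ± 1.67 TPM. Of the type II cadherins, Cdh8 had the highest mean in dorsal DG (16.3 ± 3.22 TPM, 9.31 ± 2.25 in ventral) and Cdh9 in ventral DG (13.2 ± 3.42 TPM, 15.2 ± 2.95 in dorsal). Pcdh8 led the δ2-protocadherins at 18.7 ± 3.16 and 8.84 ± 2.15 TPM, Celsr2 its group at 9.81 ± 1.88 and 6.38 ± 1.29 TPM, and Fat3 the Fat and Dchs genes at 6.94 ± 0.935 and 4.32 ± 0.517 TPM. Cdh13 was the highest of the atypical cadherins at 3.83 ± 0.741 and 4.53 ± 1.07 TPM. In all, 11 of the 46 genes were above 10 TPM on average, 29 above 1 TPM and 17 at or under 1 TPM, and the 5 most abundant made up 53.2% of the summed TPM of the family.

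**Figure D1:**
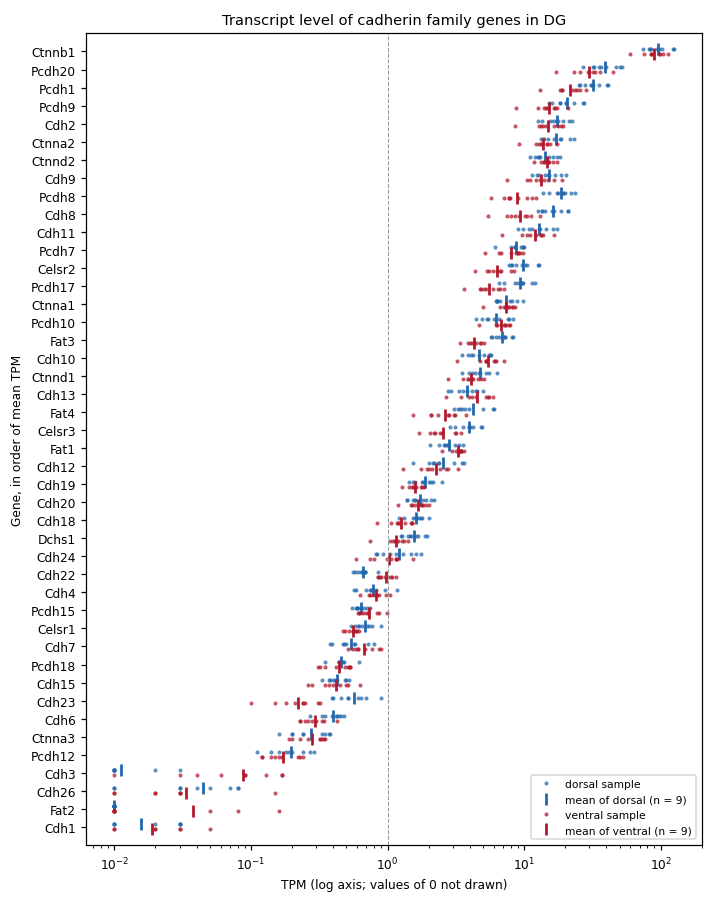
Level of each gene in TPM on a log axis, with a point for each of 9 dorsal (blue) and 9 ventral (red) samples and a tick for each mean. Ctnnb1 is at the top of both regions, and for Pcdh8 all dorsal points (13.7 to 23.7 TPM) lie to the right of all ventral points (5.74 to 12.2 TPM).

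Pcdh8, Pcdh17, Pcdh20 and Pcdh9 lie in this order on chromosome 14 (GRCm38; Pcdh8 at chr14:79766775-79771312, minus strand; Pcdh17 at chr14:84443563-84539002, plus strand), and all 4 had more RNA in dorsal DG (below). Cdh8 (chr8:99024471-99416471, minus strand) was the type II cadherin with the clearest dorsal excess. The bases just upstream of the RefSeq transcript start (GRCm38.p6) of these genes are shown because these are the members that moved together or furthest toward dorsal DG at a level above 1 TPM. They are written 5′ to 3′ on the strand of the gene, with capitals marking each CCAAT box (CCAAT on either strand, so that ATTGG is the same box read backwards). The Cdh8 stretch is shorter, since an exon of the lincRNA A330008L17Rik, transcribed the other way, starts in its window. The positions are chr14:79771313-79771562 (minus strand) for Pcdh8, chr14:84443313-84443562 (plus) for Pcdh17, chr14:88471397-88471646 (minus) for Pcdh20, chr14:93890680-93890929 (minus) for Pcdh9 and chr8:99416472-99416641 (minus) for Cdh8.
Pcdh8: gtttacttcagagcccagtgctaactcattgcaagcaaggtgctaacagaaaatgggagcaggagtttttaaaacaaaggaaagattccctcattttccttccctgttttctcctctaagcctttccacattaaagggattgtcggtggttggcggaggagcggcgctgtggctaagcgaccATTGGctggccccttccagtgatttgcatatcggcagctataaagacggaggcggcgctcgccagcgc
Pcdh17: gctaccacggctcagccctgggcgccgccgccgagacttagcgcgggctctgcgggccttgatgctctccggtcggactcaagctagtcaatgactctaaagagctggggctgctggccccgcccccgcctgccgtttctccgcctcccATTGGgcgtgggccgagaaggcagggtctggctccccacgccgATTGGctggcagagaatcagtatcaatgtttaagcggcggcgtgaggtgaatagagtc
Pcdh20: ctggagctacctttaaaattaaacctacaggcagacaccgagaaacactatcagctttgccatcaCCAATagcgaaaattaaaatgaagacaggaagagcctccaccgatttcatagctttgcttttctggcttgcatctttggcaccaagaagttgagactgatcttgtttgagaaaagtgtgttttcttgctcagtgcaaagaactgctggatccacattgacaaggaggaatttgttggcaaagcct
Pcdh9: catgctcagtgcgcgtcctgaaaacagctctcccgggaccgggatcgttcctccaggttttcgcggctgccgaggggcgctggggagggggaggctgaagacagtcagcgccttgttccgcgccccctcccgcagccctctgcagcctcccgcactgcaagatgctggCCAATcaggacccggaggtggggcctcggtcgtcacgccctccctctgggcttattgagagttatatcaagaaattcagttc
Cdh8: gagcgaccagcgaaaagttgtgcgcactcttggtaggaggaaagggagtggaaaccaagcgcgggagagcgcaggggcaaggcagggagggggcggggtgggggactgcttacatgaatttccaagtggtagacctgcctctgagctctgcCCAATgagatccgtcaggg

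Pcdh17 held 2 CCAAT boxes in this stretch and the other 4 genes 1 each. RefSeq promoters were matched for 32 of the 46 genes, and 15 of those 32 (46.9%) held a CCAAT box in the 250 bases before the start, against 37.5% of all 27025 genes with a window (a gene with several windows counted once, if any held it). Of these 15, 3 were called toward dorsal DG (Cdh8, Pcdh8 and Pcdh17) and 3 toward ventral DG (Cdh7, Pcdh10 and Pcdh15). The other 9 were in neither group. Promoters were matched for 8 of the genes called toward dorsal DG and for 7 of those called toward ventral DG. The box was thus found for 3 of 8 and 3 of 7, and was not confined to the dorsal calls. A TATA box (TATAAA, either strand) was found for 5 of 32 genes (15.6%), Pcdh8 among them, and for 14.3% of all genes. The E-box CAGATG, on either strand, was found for 5 of 32 genes (Cdh7, Cdh24, Celsr2, Ctnna3 and Ctnnd2) and for 16.3% of all genes, and the full cAMP response element TGACGTCA for none of the 32 and for 1.77% of all. These letters were searched with the expression results known, and a match describes the sequence only.

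To ask how the family differs along the long axis of the DG, dorsal and ventral samples were compared over both housings. The family split evenly: 9 of the 42 tested genes were called higher in dorsal DG and 9 higher in ventral DG, and 24 were not called. A call needed an edgeR quasi-likelihood adjusted p under 0.05 and a change of at least 20%. The even split depended on the filter on low counts, which Cdh3 and Fat2 passed through their ventral samples. In any dorsal sample, Cdh3 had at most 7 counts and Fat2 at most 13. A filter of more than 10 counts in at least 9 samples left both out. It gave 9 calls toward dorsal and 7 toward ventral DG among 40 tested genes. The 18 calls are 42.9% of the 42, beside 32.7% of all 17040 genes tested (15.9% higher in dorsal, 16.8% higher in ventral). Higher in dorsal DG were Pcdh8, Pcdh17, Pcdh1, Cdh8, Cdh23, Celsr2, Celsr3, Fat3 and Fat4, and higher in ventral DG were Pcdh10, Pcdh15, Cdh3, Cdh7, Cdh10, Cdh13, Cdh22, Fat1 and Fat2. Another 11 genes had an adjusted p under 0.05 with a change of less than 20%, so that 29 passed with no limit on size, beside 58.4% of all genes. The 9 dorsal and 9 ventral samples did not overlap for 13 of the 42 genes, as against 18.9% of all genes. For 21 of the 42 genes the sign was the same in 9 of 9 pools. The matching share of all genes was not taken, so this count has no background to be read against. The median log2 change of the 42 genes was 0.04, and that of all genes -0.00463.

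**Figure D2:**
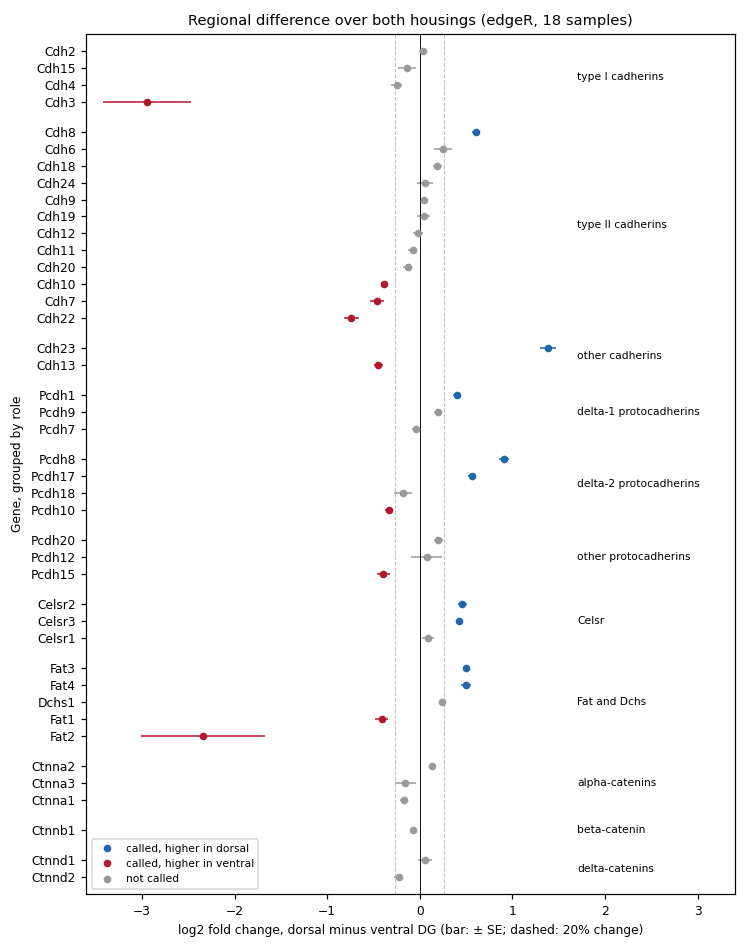
log2 fold change of dorsal minus ventral DG for each of the 42 tested genes, with its standard error, by role. Blue genes were called higher in dorsal, red genes higher in ventral DG and gray genes were not called; Cdh3 and Fat2 lie furthest out and have the widest errors.

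The δ2-protocadherins held the largest regional change among the abundant genes. Pcdh8, also called arcadlin, is induced by neuronal activity and draws N-cadherin into the cell. Its level in dorsal SH samples was 144, 125, 134 and 137 CPM and in dorsal EE samples 132, 146, 150.1, 164 and 150.3 CPM. In ventral SH samples it was 69.6, 71.6, 78.1 and 74.4 CPM and in ventral EE samples 70.1, 74.6, 69.8, 92.4 and 80.6 CPM. The lowest dorsal sample stood above the highest ventral sample, ventral EE replicate 4, and every pool had more Pcdh8 in its dorsal sample. The log2 change was 0.91 ± 0.05 (± SE), a 1.88-fold difference (adjusted p = 1.21e-12). In TPM, Pcdh8 ranked 5th of the 46 genes in dorsal and 11th in ventral DG.

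Pcdh17, which gathers at presynaptic sites, followed the same course at a smaller size. Dorsal samples held 193, 173, 183 and 186 CPM in SH and 192, 167, 205, 195 and 192 CPM in EE. Ventral samples held 114, 125, 129 and 131 CPM in SH and 124, 126, 126, 129.8 and 138 CPM in EE. The regions did not overlap, and the log2 change was 0.56 ± 0.04 (adjusted p = 5.71e-11). Pcdh10, a protocadherin of axon growth and synapse removal, went the other way: its dorsal samples ranged over 82.9 to 101 CPM and its ventral samples over 106 to 125 CPM, with a log2 change of -0.33 ± 0.04 (adjusted p = 6.23e-07). Pcdh18 was the only δ2 member not called, with dorsal samples at 4.53 ± 0.478 CPM and ventral ones at 5.14 ± 0.849 CPM (log2 change -0.18 ± 0.09, adjusted p = 0.0958).

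Of the 3 δ1-protocadherins, Pcdh1 was called, with 267 to 306 CPM in dorsal and 191 to 230.4 CPM in ventral samples and a log2 change of 0.40 ± 0.04 (adjusted p = 3.01e-08). Pcdh9 was 0.19 ± 0.04 on the log2 scale (adjusted p = 0.000223) and Pcdh7 -0.05 ± 0.04 (adjusted p = 0.328), so the former passed the test below the 20% limit and the latter did not pass. Among the other protocadherins, Pcdh20 had a log2 change of 0.20 ± 0.05 (adjusted p = 0.000691), also below 20%, and Pcdh12, an endothelial protocadherin, of 0.07 ± 0.16 (adjusted p = 0.725). Pcdh15 was higher in ventral DG (log2 change -0.39 ± 0.07, adjusted p = 9.77e-05), with overlapping ranges of 6.85 to 9.95 and 9.36 to 12.9 CPM.

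Cdh23 and Pcdh15 form the tip link of hair cells of the inner ear as partners on facing filaments, and here they were called in opposite directions. Cdh23 had 8.86, 9.46, 7.94 and 6.07 CPM in dorsal SH and 7.77, 9.69, 8.66, 8.89 and 8.71 CPM in dorsal EE samples. In ventral samples it had 3.88, 3.27, 3.36 and 2.7 CPM in SH and 2.87, 3.76, 3.29, 3.07 and 2.78 CPM in EE. The regions did not overlap and the fold was 2.6 (log2 change 1.38 ± 0.09, adjusted p = 8.4e-12), but Cdh23 was under 1 TPM in every sample, at 0.569 ± 0.163 TPM in dorsal and 0.222 ± 0.0714 TPM in ventral DG.

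The 12 type II cadherins, which sort neurons and their synapses by subtype, were all tested; 1 was called higher in dorsal DG, 3 higher in ventral DG and 8 were not called. Cdh8 was the dorsal one. Cdh8 samples read 135, 126, 132 and 133 CPM in dorsal SH and 125, 126, 121, 128 and 129.7 CPM in dorsal EE. In ventral DG they read 88.3, 83.4, 93.4 and 88.3 CPM in SH and 76.5, 74.9, 79.9, 89.5 and 86.6 CPM in EE. No ventral sample reached the lowest dorsal one, and the difference was 1.52-fold (log2 change 0.60 ± 0.04, adjusted p = 2.99e-12). The lincRNA A330008L17Rik, which starts upstream of Cdh8 on the opposite strand, was far lower, with 7.97 ± 1.25 CPM for dorsal and 6.35 ± 0.7 CPM for ventral samples (mean ± SD, n = 9 each). Its mean was also higher in dorsal DG, its ranges overlapped, and its test result was not taken.

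Cdh9, which acts at the mossy fiber synapse between granule cells and CA3 pyramidal cells, stood near Cdh8 in TPM but did not part by region. Dorsal samples held 105, 108, 112 and 117 CPM in SH and 106, 104, 104, 113 and 109.9 CPM in EE. Ventral samples held 108, 105, 119.5 and 115 CPM in SH and 97.8, 92.9, 92.2, 115 and 101 CPM in EE. The groups overlapped, 6 of 9 pools had more in the dorsal sample, and the log2 change was 0.04 ± 0.04 (adjusted p = 0.385). The 3 type II cadherins higher in ventral DG were Cdh10, Cdh7 and Cdh22. Cdh10 ranged over 30.1 to 33.8 CPM in dorsal and 37.5 to 44 CPM in ventral samples, with no overlap (log2 change -0.39 ± 0.03, adjusted p = 5.13e-10). Cdh22 had a log2 change of -0.74 ± 0.08 (adjusted p = 6.41e-08), with 4.1 to 6.38 and 7.12 to 10.8 CPM, and Cdh7 of -0.46 ± 0.07 (adjusted p = 1.51e-05), both at under 1 TPM on average. Of the other 7 type II cadherins, Cdh6 (0.25 ± 0.10), Cdh18 (0.19 ± 0.05) and Cdh20 (-0.13 ± 0.05) passed the test with changes under 20%, and Cdh11 (-0.08 ± 0.05), Cdh12 (-0.02 ± 0.05), Cdh19 (0.04 ± 0.07) and Cdh24 (0.06 ± 0.08) did not pass.

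Cdh13, or T-cadherin, is tied to the membrane by a lipid anchor and has no cytoplasmic tail for catenins. It was higher in ventral DG, where SH samples had 37.5, 40.7, 40.2 and 44.5 CPM and EE samples 34.5, 34.5, 35.5, 41.5 and 40.6 CPM. Dorsal samples had 29.8, 25.7, 25.9 and 27.1 CPM in SH and 30.5, 28.4, 32.4, 27.3 and 31.9 CPM in EE. The regions did not overlap (log2 change -0.45 ± 0.05, adjusted p = 6.86e-08). Of the 5 type I cadherins, Cdh2 averaged 119 ± 4.6 CPM in the dorsal samples and 116 ± 7.48 CPM in the ventral ones (log2 change 0.03 ± 0.04, adjusted p = 0.486). The low-level Cdh4 had a log2 change of -0.25 ± 0.06, past the test but under 20%, Cdh15 of -0.14 ± 0.10 (adjusted p = 0.237), Cdh1 was not tested, and Cdh3 is described below with Fat2.

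**Figure D3:**
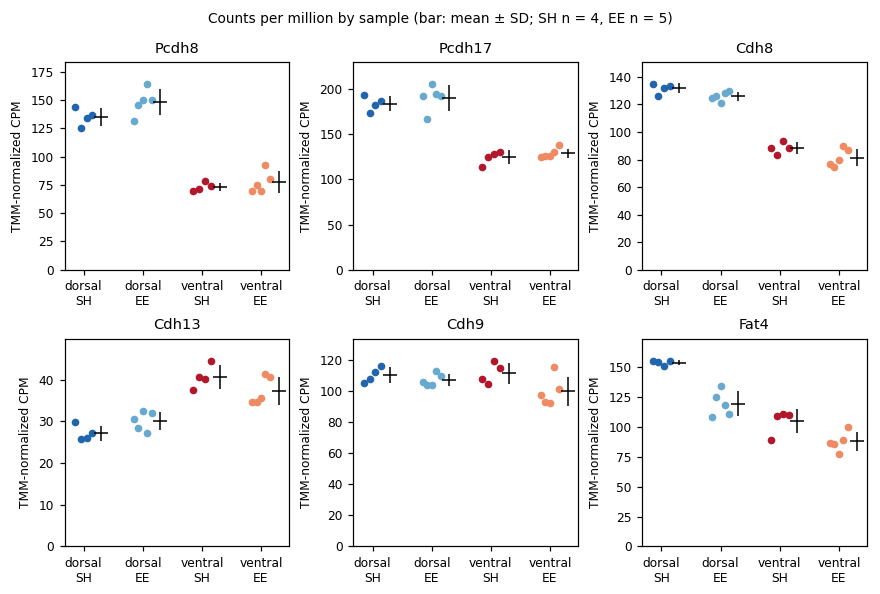
TMM-normalized CPM of 6 genes by sample in the 4 groups, with the mean and SD of each group beside its points (SH n = 4, EE n = 5). Pcdh8, Pcdh17 and Cdh8 are higher and Cdh13 is lower in every dorsal than in any ventral sample, Cdh9 overlaps, and Fat4 is lower in dorsal EE than in dorsal SH samples.

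Celsr2 and Celsr3, planar polarity cadherins with a receptor-like membrane part that guide dendrites and axons, were both higher in dorsal DG. Celsr2 samples read 217, 195, 202 and 209 CPM in dorsal SH and 196, 195, 225, 183 and 183 CPM in dorsal EE. In ventral DG they read 123, 141, 157 and 149 CPM in SH and 148, 140.2, 155, 139 and 167 CPM in EE (log2 change 0.46 ± 0.05, adjusted p = 6.92e-08). Celsr3 ranged over 57.1 to 63.5 and 41 to 50.2 CPM (log2 change 0.43 ± 0.04, adjusted p = 4.43e-09). Neither overlapped between regions. Celsr1, the member of progenitor cells, was under 1 TPM and had a log2 change of 0.09 ± 0.07 (adjusted p = 0.287).

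The giant Fat cadherins divided by member. Fat3, which shapes dendrites, read 254, 273, 260.0 and 259 CPM in dorsal SH and 275, 283, 289.7, 269.9 and 273 CPM in dorsal EE samples. In ventral DG it read 183, 181, 176 and 180.0 CPM in SH and 210.3, 227, 200.4, 184 and 191 CPM in EE samples, all below the dorsal ones (log2 change 0.50 ± 0.04, adjusted p = 1.31e-10). Fat4 had 109 to 155 and 77.3 to 111 CPM (log2 change 0.50 ± 0.05, adjusted p = 2.34e-08), ranges that overlapped between the lowest dorsal EE and the highest ventral SH samples. Dchs1, the ligand that binds Fat4 on the next cell, had a log2 change of 0.24 ± 0.04 (adjusted p = 1.7e-05), the same sign in 9 of 9 pools and no overlap, but a change below 20%. Fat1 was higher in ventral DG. Its dorsal samples ran from 58.8 to 79.1 CPM and its ventral samples from 77.9 to 108 CPM, an overlap at the edge, and every pool had more in its ventral sample (log2 change -0.41 ± 0.07, adjusted p = 1.77e-05).

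Among the 42 tested genes, Fat2 and Cdh3 had the largest fitted folds and the lowest mean TPM. Fat2 is best known from cerebellar granule cells. It had 5.86, 0.263, 0.365 and 0.438 CPM in ventral SH and 3.22, 0.226, 1.96, 0.276 and 0.333 CPM in ventral EE samples. In dorsal samples it ranged over 0.247 to 0.342 CPM in SH and 0.147 to 0.539 CPM in EE. Thus 3 ventral samples, SH replicate 1, EE replicate 1 and EE replicate 3, stood apart, and the other 6 ventral samples lay within the dorsal range. The same 3 samples were the highest for the cerebellar granule cell genes Gabra6 (5.51, 1.28 and 0.549 CPM) and Cbln3 (6.6, 4.19 and 1.45 CPM), while Barhl1 was at most 0.141 CPM in any sample. These genes were chosen after the values of Fat2 were seen. With all 18 samples the log2 change of Fat2 was -2.34 ± 0.67 (adjusted p = 0.00471). Without the 3 ventral samples it was -0.15 (adjusted p = 0.683), and without SH replicate 1 alone -1.15 (adjusted p = 0.117), so the call rested on those samples.

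Cdh3, or P-cadherin, had 0.494, 0.301, 0.932 and 1.5 CPM in ventral SH and 0.466, 0.181, 1.72, 0.748 and 0.926 CPM in ventral EE samples. Dorsal samples had 0.143, 0.0411, 0.0427 and 0.0745 CPM in SH and 0.184, 0.29, 0.0813, 0 and 0.105 CPM in EE, so the regions overlapped at the bottom of the ventral range (log2 change -2.94 ± 0.48, adjusted p = 1.64e-05). The choroid plexus genes Ttr and Folr1 were also higher in ventral samples, with 347 to 1304 CPM of Ttr against 5.12 to 173 CPM in dorsal samples. The ventral samples highest for both, EE replicate 3 and SH replicate 5, were also the highest for Cdh3. The part of this tissue in the Cdh3 result was not tested.

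**Figure D4:**
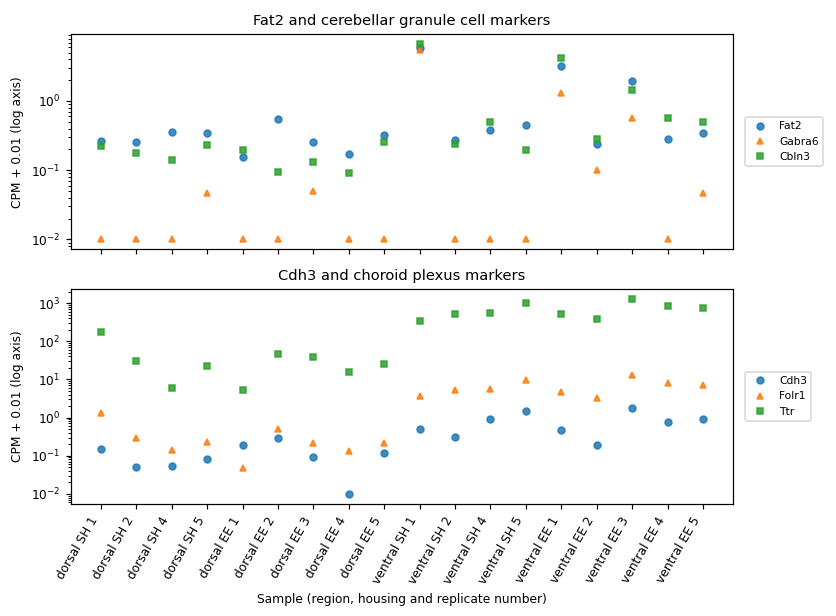
CPM of Fat2 with Gabra6 and Cbln3 (top) and of Cdh3 with Folr1 and Ttr (bottom) in each of 18 samples, on a log axis after adding 0.01 CPM. Fat2 is raised in ventral SH 1, EE 1 and EE 3, where Gabra6 and Cbln3 are raised too, and Cdh3, Folr1 and Ttr are higher in ventral than in most dorsal samples.

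None of the 6 catenins was called between regions. Ctnnb1 averaged 646 ± 14.6 CPM in the dorsal samples and 678 ± 19.5 CPM in the ventral ones, a log2 change of -0.07 ± 0.03 (adjusted p = 0.0452). Ctnna2 (0.14 ± 0.03), Ctnna1 (-0.18 ± 0.04) and Ctnnd2 (-0.23 ± 0.05) also had an adjusted p under 0.05 with a change under 20%, and Ctnna3, at under 1 TPM, had -0.16 ± 0.11 (adjusted p = 0.25). Ctnnd1 (p120-catenin) is uncertain in the gene counts, since the annotated gene Gm28635 overlaps it on the same strand and its counts were only 9.23% of the RSEM expected counts. With the expected counts its log2 change was 0.05 (adjusted p = 0.254), and with the gene counts 0.06 ± 0.07 (adjusted p = 0.543).

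Taken pool by pool, the difference between the dorsal and ventral sample of the same number kept one sign in all 9 pools for Pcdh8, Pcdh17, Cdh8 and Cdh13 but not for Cdh9. For Pcdh8 it ran from 0.78 to 1.11 on the log2 scale over 9 pools, for Pcdh17 from 0.41 to 0.76 and for Cdh8 from 0.50 to 0.75. Cdh13 ran from -0.71 to -0.13, a wider spread, with the smallest gap in EE pools. For Cdh9 the 9 pools lay on both sides of 0, from -0.09 to 0.18.

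Genes of the family on the same chromosome, most of them far apart, did not all move alike. On chromosome 14, Pcdh8, Pcdh17, Pcdh20 and Pcdh9 all passed the test with more RNA in dorsal DG, the first pair past 20%, while Cdh24, further off at chr14:54631231-54641364, did not pass. On chromosome 8, Cdh8 was higher in dorsal DG and the next tested member, Cdh11 (chr8:102632095-102785642), did not pass. Cdh13 (chr8:118283733-119324921, plus strand), Cdh3 and Fat1 were higher in ventral DG. On chromosome 15, Cdh9 (chr15:16728756-16857094, plus strand) and Cdh12 did not pass, Cdh10 between them (chr15:18818947-19014236) was higher in ventral DG, and Cdh6 and Cdh18 passed with small dorsal excesses. These genes were compared after their values were seen.

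The regional pattern was then taken within each housing, in pools that do not overlap between the comparisons. In SH, 20 of the 42 genes were called (10 higher in each region), beside 28.3% of all genes, and in EE 19 genes (9 higher in dorsal, 10 in ventral), beside 29.8% of all genes. Of these, 17 were called in both housings, each with the same sign. The share of all genes called in both housings was not taken. Both comparisons came from the one fit of 18 samples and shared its estimate of the spread. Pcdh8 had a log2 change of 0.88 ± 0.08 in SH and 0.94 ± 0.07 in EE, Pcdh17 of 0.56 ± 0.06 and 0.56 ± 0.05, Cdh8 of 0.58 ± 0.05 and 0.63 ± 0.05, Cdh9 of -0.02 ± 0.06 and 0.10 ± 0.06, and Cdh13 of -0.58 ± 0.07 and -0.31 ± 0.07. Dchs1, Cdh15 and Fat2 were called in SH alone, and Cdh4 and Ctnnd2 in EE alone. With the pool as a block, Cdh15 lost its call in SH (adjusted p = 0.0514) and Fat2 gained one in EE (adjusted p = 0.0121). None of these differences between housings passed as an interaction.

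The test of that difference, region by housing, called 0 of the 42 genes by edgeR's quasi-likelihood test, beside 0.00587% of all genes (1 gene). Unadjusted p was under 0.05 for 3 of the 42 genes, beside 3.25% of all genes, and DESeq2 and the likelihood ratio test also called 0. The 3 were Cdh13 (difference of the EE effects, dorsal minus ventral, 0.27 ± 0.10 on the log2 scale, adjusted p = 1 by edgeR), Cdh15 (0.46 ± 0.20) and Pcdh7 (0.17 ± 0.08).

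Few genes of the family differed by housing, and the one that passed was Fat4. In dorsal DG, 1 of the 42 genes was called between EE and SH, beside 0.634% of all genes. Fat4, the large cadherin receptor for Dchs1 that acts with it in neural precursors, read 155, 155, 151 and 155 CPM in dorsal SH and 109, 125, 134, 118 and 111 CPM in dorsal EE samples. All 5 EE samples were below all 4 SH samples, and the log2 change was -0.37 ± 0.07 (adjusted p = 0.0103). The left-out dorsal SH replicate 3 had 136 CPM when scaled with all 20 samples, close to the highest EE sample. With all 20 samples Fat4 kept its call. In ventral DG, Fat4 read 89.5, 109, 111 and 110.4 CPM in SH and 87, 85.8, 77.3, 89.3 and 100.3 CPM in EE samples. There the groups overlapped through SH replicate 1, and the change of -0.25 ± 0.07 did not pass (adjusted p = 0.224). The difference between the dorsal and ventral changes of Fat4 was -0.11 ± 0.10 (adjusted p = 1). Its ligand Dchs1 had 0.03 ± 0.05 in dorsal and 0.11 ± 0.06 in ventral DG, neither past the test.

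Unadjusted p was under 0.05 for 10 of the 42 genes in dorsal DG, beside 8.81% of all genes. Next after Fat4 came Cdh12, with 31.8 to 36.3 CPM in SH and 25 to 30.2 CPM in EE samples (log2 change -0.28 ± 0.07, adjusted p = 0.0978), Pcdh7 (0.20 ± 0.06, adjusted p = 0.138) and Cdh7 (0.39 ± 0.11, adjusted p = 0.139). EE and SH did not overlap in dorsal DG for 4 genes (Fat4, Cdh12, Pcdh9 and Ctnnb1), as against 3.99% of all genes. In ventral DG, edgeR's quasi-likelihood test called 0 of the 42 genes, beside 0.241% of all genes, as did DESeq2 and the likelihood ratio test. Unadjusted p was under 0.05 for 9 of the 42 genes, beside 7.58% of all genes, the smallest for Fat4 and then Pcdh20 (-0.21 ± 0.06, adjusted p = 0.276) and Fat3 (0.17 ± 0.05, adjusted p = 0.292). EE and SH did not overlap in ventral DG for 4 genes (Cdh7, Cdh10, Cdh18 and Fat3), as against 2.45% of all genes. Pcdh8 had log2 changes of 0.14 ± 0.07 in dorsal and 0.08 ± 0.07 in ventral DG, Pcdh17 of 0.05 ± 0.06 and 0.05 ± 0.06, Cdh8 of -0.06 ± 0.05 and -0.12 ± 0.05, Cdh9 of -0.04 ± 0.06 and -0.16 ± 0.06, and Cdh13 of 0.15 ± 0.07 and -0.12 ± 0.07, none past the test.

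**Figure D5:**
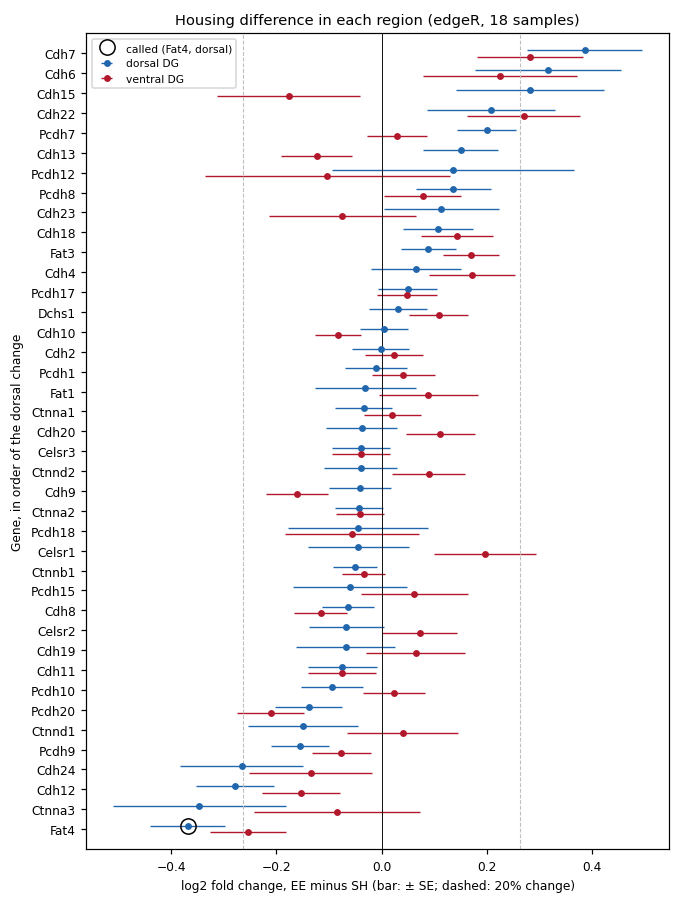
log2 fold change of EE minus SH with its standard error in dorsal (blue) and ventral (red) DG for 40 of the 42 tested genes (Cdh3 and Fat2, with few counts, are not drawn). Only dorsal Fat4, circled, was called, and most other estimates lie within the dashed lines of a 20% change.

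Genes that work with the family were read from 4 lists. Their counts stand beside 32.7% of all genes called between regions (15.9% higher in dorsal, 16.8% higher in ventral DG). Of 21 junction partners, all tested, 7 were called in favor of dorsal and 2 in favor of ventral DG. The ventral pair was Nectin3 (-0.59 ± 0.04, adjusted p = 1.36e-10) and Nectin1 (-0.52 ± 0.06, adjusted p = 8.21e-08), adhesion molecules that bind each other across mossy fiber junctions. The scaffold Magi1 (0.60 ± 0.04, adjusted p = 8.05e-11) and the polarity protein Pard3 (0.51 ± 0.04, adjusted p = 5.34e-11) led the dorsal ones. The median log2 change of this list was 0.11.

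In the planar polarity and Fat pathway, 5 of 19 genes had more RNA in dorsal and 6 in ventral DG. The polarity genes Prickle1 (0.50 ± 0.06, adjusted p = 4.31e-07) and Vangl2 (0.47 ± 0.05, adjusted p = 2.37e-08) led in dorsal DG, where Celsr2 and Celsr3 were higher too. In ventral DG the largest changes were those of Dchs2, a relative of Dchs1 (-0.52 ± 0.08, adjusted p = 1.72e-05), and Tead1, a transcription factor of the Hippo pathway (-0.42 ± 0.06, adjusted p = 4.45e-06). Yap1 and Wwtr1, the coactivators of Tead factors, and Tead2 and Fjx1, which modifies Fat and Dchs proteins, were also called higher in ventral DG. The median of this list was -0.02.

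Of 16 other genes with cadherin domains or desmosomal roles, 14 were tested, and 3 were called toward dorsal and 2 toward ventral DG. Dsp (desmoplakin, also on the granule cell list; 1.47 ± 0.07, adjusted p = 3.57e-14) and Dsg2 (0.97 ± 0.10, adjusted p = 4.04e-08) were the dorsal leaders, and Dsc3, at 0.358 CPM in ventral DG (-3.76 ± 0.58, adjusted p = 9.57e-06), and the X-linked protocadherin Pcdh11x (-0.61 ± 0.05, adjusted p = 7.55e-10) the ventral ones. The proteases that cut cadherins were the most even list, with 1 of 12 tested genes called, Aph1b, a subunit of γ-secretase (-0.35 ± 0.04, adjusted p = 6.78e-08). Between EE and SH, the only called gene of the 4 lists was Cdhr1, lower in dorsal EE (-0.47 ± 0.08, adjusted p = 0.00179). Of all genes, 0.634% were called between EE and SH in dorsal and 0.241% in ventral DG.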

How the data were processed

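RNA-Seq of 20 samples was used. Methylation libraries of the same tissue were not analysed here. The authors trimmed paired reads with Trim Galore (0.4.0), aligned them to mm10 (GRCm38) with STAR (2.5.1b) and deposited counts per gene for each strand setting, of which the reverse-strand counts were used. The authors also ran RSEM (1.2.30), whose deposited expected counts and TPM were used for an alternative and for levels between genes. Rows that name no gene held 32.6% to 40.9% of fragments and were left out. Gene names and positions are from Gencode (GRCm38), matched for 45968 of 46480 IDs.

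The 17040 genes that exceeded 10 counts in 2 samples or more were fitted in edgeR 4.0.16 (R 4.3.3; TMM, quasi-likelihood F-test, Benjamini-Hochberg adjustment over all tested genes), with the 4 groups in one model of 18 samples. Every adjusted p in the text comes from it unless another tool is named. Called means an adjusted p under 0.05 and a change of at least 20% (no limit on size for the interaction). The region test over both housings is the mean of the differences in SH and EE; a joint test of both is an alternative. Standard errors come from the F statistic. CPM in the text are TMM-scaled. The fit was tested on simulated data. Alternatives were all 20 samples, DESeq2 1.42.0, the likelihood ratio test, other filters and counts, each pool left out, and blocks.

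Named were 5 marker genes, all called members, the most abundant of each role and untested members. The members, the gene lists and the marker lists were chosen with earlier results of these data known. The authors joined dorsal and ventral samples of the same mice in a figure, and equal numbers were taken to mark them. The main fit did not use this pairing, which entered only as a block in an alternative. Deviations from group means of dorsal and ventral samples of one number correlated by 0.0739 on average over 9 pairs (3 over 0.1), and by -0.0206 between other numbers. SH and EE samples of one number, which come from different mice, correlated by 0.114 on average over 8 pairs, and by -0.0283 between other numbers. No pair of replicates held identical values (32 pairs). P-values of the main fit measure the spread between the samples of a group, each pooled from several mice. Promoters are from RefSeq (GRCm38.p6).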

Additional observations from a re-analysis of the deposited data

Results flagged for a closer look

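In 8 of 168 groups of 4 or 5 samples, the highest or lowest CPM of a tested gene stood apart from the others of its group by Dixon's criterion, and chance flags about 1 in 20 groups. Fat2 in ventral SH replicate 1 was at 5.862 CPM, with the other 3 at 0.263 to 0.438 CPM. Gabra6 and Cbln3 were raised in the same sample. Fat4 in ventral SH replicate 1 was at 89.53 CPM, with the others at 109 to 111 CPM, and this sample set the overlap of SH and EE in ventral DG. Cdh7 was low in ventral SH replicate 4 (4.62 CPM, others 5.59 to 5.67) and high in ventral EE replicate 5 (7.373 CPM, others 6.11 to 6.44). Cdh19 was at 10.61 CPM in dorsal SH replicate 5 (others 13.2 to 13.6), and Cdh6 at 2.082 CPM in ventral SH replicate 5 (others 1.62 to 1.66). Cdh10 was at 37.54 CPM in ventral EE replicate 2 (others 40.7 to 41.9), and Pcdh1 at 306.5 CPM in dorsal EE replicate 3 (others 267 to 278). The causes of these values were not tested.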

How the results depend on the processing

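Of the 18 calls between regions, 17 were kept with their sign under every alternative that tested the gene, and Fat2 was lost without SH replicate 1 and without the 3 ventral samples (added after seeing the data). A filter of more than 10 counts in at least 9 samples left out Cdh3 and Fat2, and one of above 1 TPM in at least 3 samples left out Cdh3, Cdh7, Cdh23, Fat2 and Pcdh15. With no limit on fold, 29 genes were called between regions (58.4% of all genes). Leaving out each pool in turn gave 18 to 20 calls over both housings, 16 to 20 in SH (16 without SH replicate 5, 17 without SH replicate 1) and 19 to 20 in EE. In dorsal DG, Fat4 kept its call between EE and SH in all 21 alternatives (log2 change -0.41 to -0.33, adjusted p 0.000256 to 0.0472). Cdh12 joined it under the likelihood ratio test, with no filter on low counts and in a separate fit of the region (2 genes each). With the number as a replicate block, Cdh12 and Cdh7 joined it (3 genes). SH and EE share only a number: 6 of 8 pairs correlated above 0.1 (lowest 0.0756), and 9 of 16 samples correlated best with their own number. The replicate block by pool changed no call between regions over both housings (18 genes). No alternative called a gene in ventral DG (Fat4, lowest adjusted p 0.0626) or in the interaction. Genes with few counts, such as Cdh3 and Fat2, are limited by depth, and Ctnnd1 by an overlapping gene.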
